A study of Mus musculus with 16 samples.

Results

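The comparison of Brg1-/- with Brg1+/+ mTEClo covered 147958 of the 250313 regions in the deposited table, each 500 bases long, and rested on 4 of the 16 libraries. Regions were members if their signal, averaged over those 4 libraries without regard to genotype, was at least 7.5. At that edge, a region on chromosome 15 from 35452473 to 35452972 (mm9, starts counted from 1) had a mean of 7.5 and was kept, and 3 regions with a mean of 7.49995 were left out.

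Medullary thymic epithelial cells (mTECs) display antigens of many peripheral tissues to developing T cells. Surface MHC class II splits them into a low fraction, mTEClo, which holds immature cells together with cells past the Aire-expressing stage, and a high fraction, mTEChi, where most Aire-expressing cells are found. Brg1 is an ATPase of the SWI/SNF complexes, which use ATP to slide or evict nucleosomes and so can change how accessible DNA is. ATAC-seq reads accessibility through the transposase Tn5, which inserts sequencing adapters preferentially into DNA that is not wrapped in nucleosomes.

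All mice were labelled C57BL/6 and 4 weeks old, and each reaction used 60000 sorted thymus cells (DAPI and CD45 negative, Epcam and UEA positive, Ly51 low). The groups compared were 2 Brg1+/+ and 2 Brg1-/- mTEClo libraries. The remaining 12 libraries came in pairs as well: mTEChi of both Brg1 genotypes, and both sorts of Aire+/+ and Aire-/- mice, called the Aire line here. The descriptions of the Brg1+/+ libraries carry the word NOCRE; the labels name no Cre driver, so which cells lost Brg1, and how completely, was not analysed here. Nothing in the labels tells whether both libraries of a group are from different mice. The p-values therefore reflect the spread of these samples alone, and that spread may be technical. Regions were not linked to genes, so neither the mTEC markers nor the Brg1 gene was checked, and cell type and genotype rest on the labels.

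Over the members the 4 libraries had median signals of 15.9 and 15.5 (Brg1+/+ replicates 1 and 2) and of 15.5 and 15.9 (Brg1-/-), so the median deposited signal did not separate the genotypes. How the libraries were scaled before deposit is not given. A difference in total accessibility could have been scaled away, so these medians cannot show that there was none. Pearson correlations of log2(signal + 1) across regions were 0.823 between the Brg1+/+ libraries and 0.812 between the Brg1-/- libraries. Between genotypes the 4 correlations ran from 0.768 to 0.787, below both. The Aire-line mTEClo libraries correlated with Brg1+/+ at a median of 0.805 over 8 pairs and with Brg1-/- at a median of 0.754 over 8 pairs. These correlations are across regions, which are not independent replicates.

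One region, 1 of 147958, passed the test of Brg1-/- against Brg1+/+ mTEClo (0.000676% called). The test was a limma fit of log2(signal + 1) over all 16 libraries, and a region was called where its p-value, after Benjamini-Hochberg adjustment, was under 0.05. It lay on chromosome 6 from 122419207 to 122419706. Its signal was 52.4 and 39.2 in the Brg1+/+ libraries and 6.16 and 5.24 in the Brg1-/- libraries. The groups did not overlap, and the 4 Aire-line mTEClo libraries, at 43.3 to 82.3, all lay above the Brg1-/- values. Signal at this region fell by 2.79 on the log2(signal + 1) scale (SE 0.41, adjusted p = 0.0442, limma, n = 2 per group). That scale understates the change of low regions. Leaving out any 1 of the 4 libraries raised the adjusted p to between 0.108 and 0.288, so the call needed all 4. With 2 libraries a group, an exact permutation test of a single region cannot go below p = 0.333.

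In mTEChi, where different libraries were used, the same region averaged 93.5 in Brg1+/+ and 28.6 in Brg1-/-, a log2 fold change of -1.68 (unadjusted p = 0.000352, adjusted p = 0.121, limma). The difference between the sorts was -1.11 (SE 0.58, unadjusted p = 0.0647, limma), so the sorts were not shown to differ there. The region was also more accessible in mTEChi than in mTEClo in the Aire-line libraries, by 1.43 on the log2 scale. Of the 6 member regions within 50 kb, itself included, 4 had a negative fold change and 1, the called region, had an unadjusted p under 0.05. As sorted cells were measured in bulk, a loss of accessibility within cells and a loss of the cells that carry it cannot be told apart, here or in any result that follows.

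At an unadjusted p under 0.05, 9277 regions passed (6.27%), 4130 higher (2.79%) and 5147 lower (3.48%) in Brg1-/-. Without any difference a share of 0.05 would be expected to pass, so the share seen in this fit was little above it. The share depended on the libraries in the fit, as given below. Over all regions the fold changes had a median of 0.012 on the log2 scale, with the 5th percentile at -1.17 and the 95th at 1.12. The fold change was negative at 49.2% of regions and positive at 50.8%. Both Brg1-/- libraries lay above both Brg1+/+ libraries at 30951 regions (20.9%) and below them at 30096 (20.3%), together 41.3% of all. With 2 against 2 interchangeable libraries, a share of 0.333 would be expected not to overlap. A log2 fold change of at least 2 was reached by 648 regions upwards and 832 downwards, and one of at least 3 by 18 and 40. At each of these sizes the lower regions outnumbered the higher ones.

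**Figure D1:**
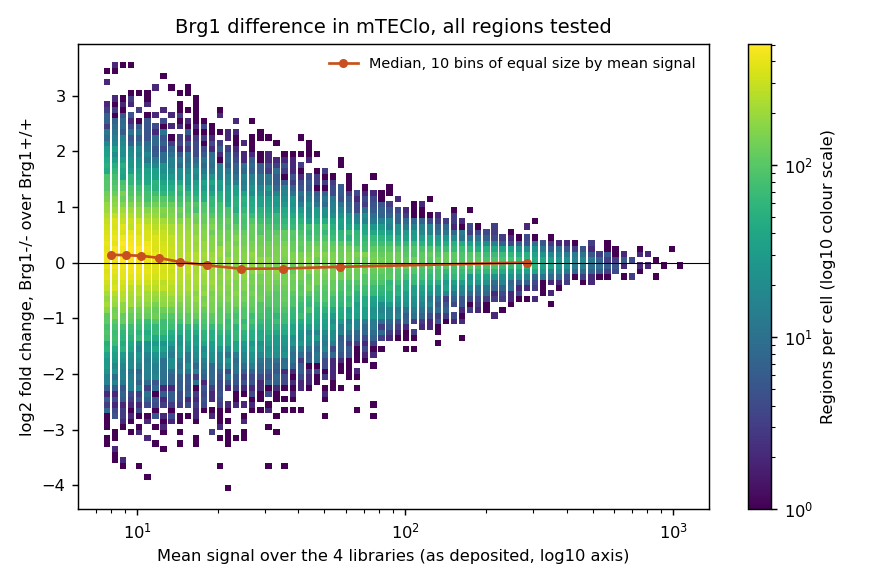
Log2 fold change of Brg1-/- over Brg1+/+ mTEClo (y axis) against mean signal over the 4 libraries (x axis, log10 scale), for all 147958 regions in cells of 0.1 by 0.1 log2 units coloured by the number of regions; orange points are medians in 10 bins of equal size. The median runs from 0.14 in the lowest bin to -0.11 near the middle and 0.0021 in the highest, and the spread narrows as signal rises.

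The fold changes varied with signal level. In 10 bins of equal size by mean signal, the median log2 fold change was 0.14 in the lowest bin, -0.11 in the seventh and eighth, and 0.0021 in the highest, whose regions had mean signals from 75.9 to 1067. The region with the highest mean, on chromosome 19 from 12039765 to 12040264, read 1091 and 1092 in the Brg1+/+ libraries against 991 and 1092 in the Brg1-/- libraries. The top of the scale was nearly the same in all 16 deposited libraries, with 99th percentiles from 213.7 to 217.3 and maxima from 1089.7 to 1095.3, so similar levels at the highest regions say nothing about the genotypes. Medians by chromosome ran from -0.036 on chromosome 9 to 0.067 on chromosome 10, and those by distance to the nearest deposited region, member or not, from -0.0093 to 0.033.

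Regions with the largest differences were taken from those above the median signal with non-overlapping groups and an unadjusted p under 0.05, which left 3710 lower and 2250 higher in Brg1-/-. The 12 largest in each direction are described by their values, since none was called in the 16-library fit. The lower 12 had log2 fold changes from -4.01 to -3.08 and adjusted p-values from 0.152 to 0.495 (limma). Their group means were 30.0 to 64.7 in Brg1+/+ and 1.84 to 7.64 in Brg1-/-.

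On chromosome 2 from 105088436 to 105088935, signal was 47.6 and 36.9 in Brg1+/+ and 2.78 and 0.886 in Brg1-/- mTEClo, a log2 fold change of -4.01 (SE 0.72, adjusted p = 0.158, limma). In mTEChi the same stretch averaged 5.47 in Brg1+/+ and 6.90 in Brg1-/-, so it was low in that sort in both genotypes. The Aire-line mTEClo libraries gave 10.6 to 26.45 there, below both Brg1+/+ values and above both Brg1-/- values. By mean signal the Aire line, at 19.6, was nearer to Brg1-/- at this region. On chromosome 11 from 56953864 to 56954363, the values were 81.7 and 47.6 against 2.76 and 5.55, and the Aire-line mTEClo libraries gave 34.7 to 78.6. A second stretch of chromosome 11, from 112411478 to 112411977, gave 60.3 and 55.4 against 4.71 and 2.77, with 44.1 to 74.0 in the Aire-line mTEClo libraries. At both chromosome 11 regions the Aire-line cells overlapped the Brg1+/+ values and lay above every Brg1-/- value. On chromosome 2 from 126165333 to 126165832, signal was 40.0 and 36.7 in Brg1+/+ and 6.16 and 0.399 in Brg1-/-. At these 4 regions no Brg1-/- mTEClo library read above 6.16.

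By mean signal, the Aire-line mTEClo libraries were nearer to Brg1+/+ than to Brg1-/- at 11 of the 12 lower regions and at 8 of the 12 higher regions. By mean log2(signal + 1) the counts were 12 and 4, so the count for the higher regions depended on the scale. Both sets were picked on the Brg1-line values, so this is a description. Of the lower 12, 7 belonged to the regions more accessible in mTEClo than in mTEChi (defined below) and none to the opposite class, and 4 had a negative fold change in mTEChi as well, where 39.7% of all regions did.

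The 12 higher regions had log2 fold changes from 2.55 to 2.90 with adjusted p-values from 0.366 to 0.629 (limma). Group means were 3.74 to 8.48 in Brg1+/+ and 27.3 to 46.3 in Brg1-/-. On chromosome 10 from 69473731 to 69474230, signal was 10.3 and 2.97 in Brg1+/+ and 38.4 and 39.9 in Brg1-/-, a log2 fold change of 2.58 (SE 0.59, adjusted p = 0.366, limma). On chromosome 7 from 4404175 to 4404674 it was 7.86 and 5.89 against 36.9 and 55.7. On chromosome 16 from 28793154 to 28793653 it was 7.58 and 2.98 against 34.7 and 34.8. At that last region the Aire-line mTEClo libraries reached from 11.9 to 44.3 and overlapped the Brg1-/- values. None of these 12 belonged to either sort-dependent class, and 8 had a positive fold change in mTEChi, where 60.3% of all regions did.

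**Figure D2:**
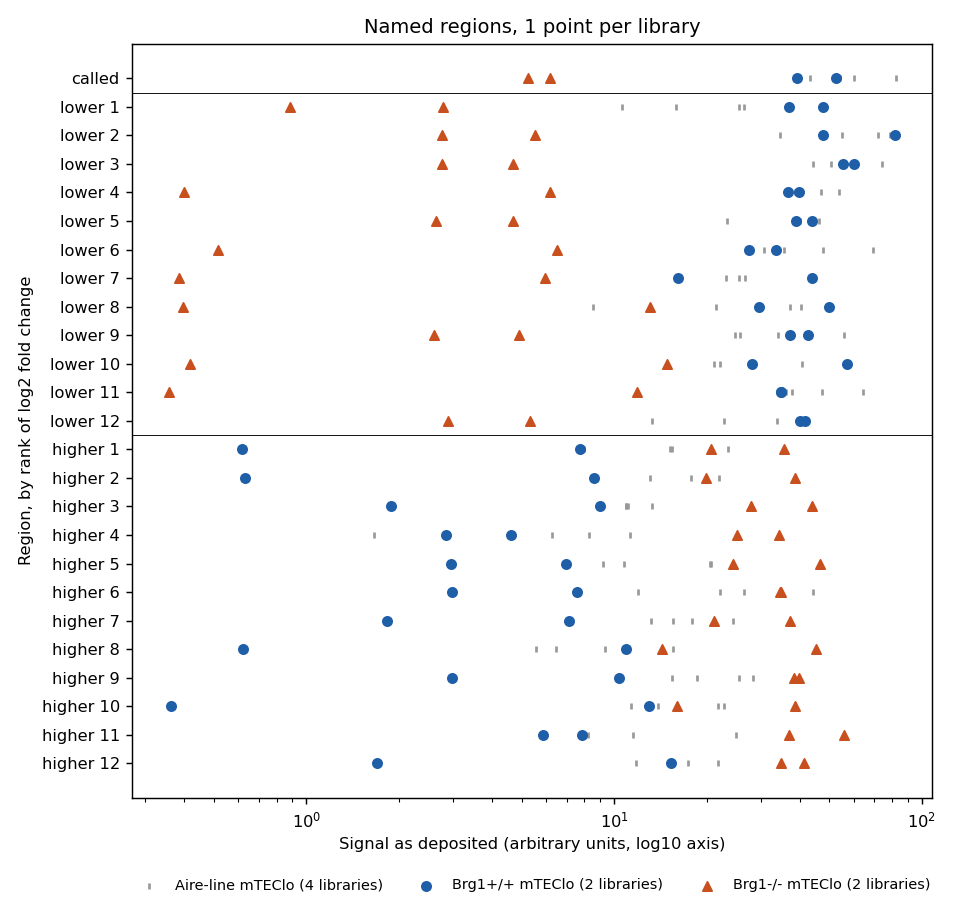
Deposited signal (x axis, log10 scale) in each library at the called region and the 12 lower and 12 higher regions, ordered by log2 fold change; circles are Brg1+/+ mTEClo, triangles Brg1-/- mTEClo and ticks the 4 Aire-line mTEClo libraries. Circles and triangles do not overlap at any of these regions, by the rule that chose the 24, and at the called region the circles are at 52.4 and 39.2 and the triangles at 6.16 and 5.24.

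How many regions passed depended on which libraries set the spread. The median residual SD was 0.61 on the log2 scale with all 16 libraries and 0.45 with the 8 mTEClo libraries alone. With the 8 Brg1-line libraries alone it was 0.58, no region was called (8357 had an unadjusted p under 0.05), and the region on chromosome 6 had an adjusted p of 0.781 (limma). In the fit of the 8 mTEClo libraries 373 regions were called (0.252%), 357 lower (0.241%) and 16 higher (0.0108%) in Brg1-/-. That fit had 18616 regions (12.6%) at an unadjusted p under 0.05 (limma). With only the 4 libraries compared there were 15848 (10.7%, limma). At the 357 lower regions the median of the group means was 67.7 in Brg1+/+ and 17.2 in Brg1-/-, with a median log2 fold change of -1.96, and they lay on 20 chromosomes. At the 16 higher regions it was 5.35 and 33.9. Both named sets were picked for large differences in the same Brg1-line mTEClo libraries, so their presence here partly follows from that choice. The lower set supplied 9 of its 12 members to these 373 calls and the higher set 4 of 12. Without Brg1+/+ replicate 2 this count was 0. Without Brg1+/+ replicate 1 it was 35, of which 28 were higher. It was 851 without Brg1-/- replicate 1, of which 842 were lower, and 862 without Brg1-/- replicate 2, of which 851 were lower. Under as-deposited, quantile, cyclic loess and re-centred scaling alike, 182 lower and 4 higher regions were called.

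To ask which kind of region differed, members were classed by the sort in which they were more accessible, using the 8 Aire-line libraries only (limma, adjusted p under 0.05 and an absolute log2 fold change of at least 1). This gave 17727 regions higher in mTEClo (11.98%), 15559 higher in mTEChi (10.5%) and 114672 unclassed. None of the Brg1-line libraries entered the classes, but the Aire-line libraries helped set the spread in the fits of 16 and of 8 mTEClo libraries.

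The regions higher in mTEClo had lower medians in the Brg1-/- libraries. Their median signal was 36.2 and 32.2 in the Brg1+/+ libraries and 22.3 and 21.5 in the Brg1-/- libraries. Unclassed regions had medians of 14.9 and 15.2 against 15.02 and 15.9, and regions higher in mTEChi 12.3 and 12.1 against 13.1 and 13.9. The median log2 fold change was -0.48 for regions higher in mTEClo, 0.17 for those higher in mTEChi and 0.057 for unclassed regions. Both Brg1-/- libraries lay below both Brg1+/+ libraries at 46.6% of the regions higher in mTEClo, against 20.3% of all members, and 79.6% of that class had a negative fold change. At an unadjusted p under 0.05, 9.47% of the class was lower and 0.259% higher. In the fit of the 8 mTEClo libraries, 268 of the 357 lower calls belonged to this class and 1 to the regions higher in mTEChi. The Aire-line mTEClo libraries helped set the spread in that fit and also defined the classes. This share of the calls is therefore not independent of the classes.

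Among the regions most strongly tied to mTEClo, one on chromosome 1 from 78848976 to 78849475 read 55.8 and 64.8 in Brg1+/+ and 32.6 and 24.1 in Brg1-/-. Another on chromosome 5 from 118789958 to 118790457 read 103.0 and 106.1 against 74.9 and 74.1. At both the groups did not overlap, and every Brg1-/- mTEClo value lay above the Brg1+/+ mTEChi values, which were 5.80 and 9.94 at the former and 11.6 and 12.4 at the latter. Neither region was called. A region on chromosome 2 from 19823453 to 19823952 had 32.2 and 52.1 against 37.2 and 34.1, with overlapping groups, so the class was not uniform.

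The gap between a class and the unclassed regions of the same library gives 1 value per library. For regions higher in mTEClo the gap in median log2(signal + 1) was 1.13 ± 0.14 (SD, n = 2) in Brg1+/+ and 0.48 ± 0.09 (SD, n = 2) in Brg1-/- mTEClo. All 4 Aire-line mTEClo libraries, which helped define the class, had gaps from 0.77 to 1.14, above both Brg1-/- libraries. The gap of regions higher in mTEChi was -0.262 and -0.309 in Brg1+/+ and -0.180 in both Brg1-/- libraries. From regions higher in mTEClo to those higher in mTEChi, the contrast was 1.41 ± 0.10 in Brg1+/+ and 0.66 ± 0.09 in Brg1-/- (SD, n = 2 each), a difference larger than the spread within either group. No test was made of these medians.

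**Figure D3:**
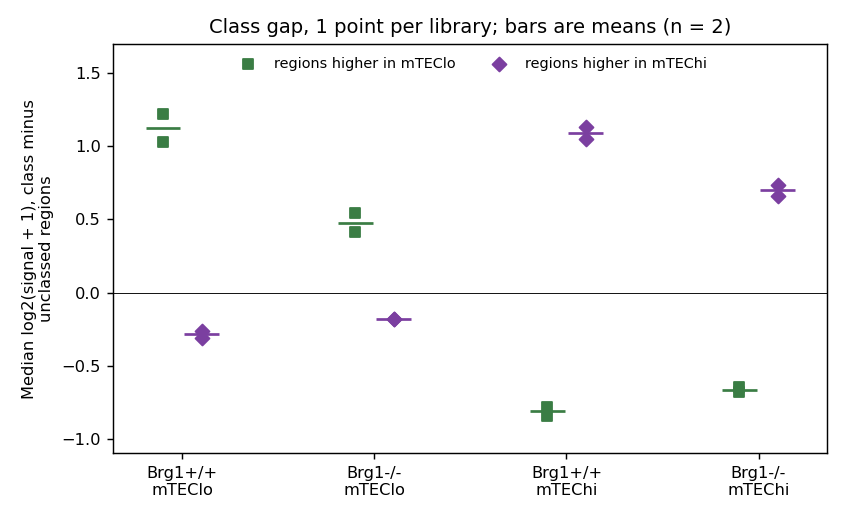
Median log2(signal + 1) of each class minus that of unclassed regions (y axis) in each Brg1-line library, squares for regions higher in mTEClo and diamonds for regions higher in mTEChi; bars are group means. In mTEClo the squares are at 1.22 and 1.03 with Brg1 and at 0.54 and 0.41 without it, and in mTEChi the diamonds are at 1.13 and 1.05 with it and at 0.73 and 0.66 without it.

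The difference was graded. Over bins of the Aire-line fold change of mTEChi over mTEClo, the median Brg1 log2 fold change in mTEClo was -0.69 for the 570 regions below -3, -0.59 for the 5284 from -3 to -2, and -0.32 for the 20367 from -2 to -1. It was -0.0061 in the bin from -1 to 0, 0.14 from 0 to 1, and 0.19 to 0.21 in the 3 bins above 1. In 5 bins of equal size by mean signal the regions higher in mTEClo had medians of -0.27, -0.31, -0.50, -0.64 and -0.41, and unclassed regions of 0.14, 0.12, 0.027, -0.0090 and 0.030. The class median lay below that of unclassed regions in each of the 5 bins.

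The mTEChi libraries showed the gradient from the other end. There, the median Brg1 log2 fold change was 0.32 below -3, 0.17 in the bin from 0 to 1, and -0.30 in the bin above 3. The gap of regions higher in mTEChi was 1.09 ± 0.06 (SD, n = 2) in Brg1+/+ and 0.70 ± 0.05 (SD, n = 2) in Brg1-/- mTEChi. In each sort, the regions more accessible in that sort stood out less from unclassed regions in the Brg1-/- libraries.

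**Figure D4:**
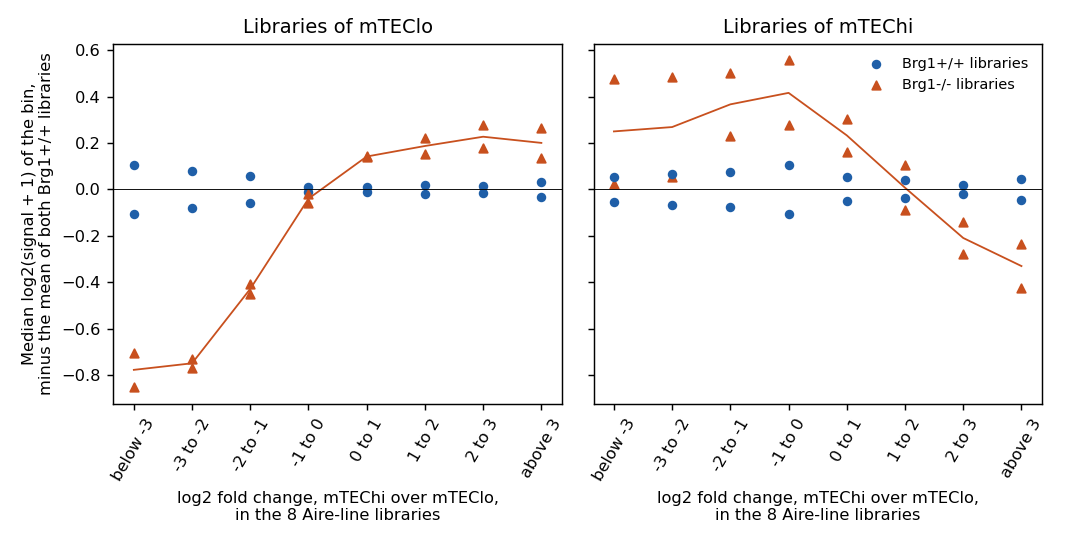
Median log2(signal + 1) of the regions in each bin of the Aire-line mTEChi over mTEClo fold change (x axis), minus the mean of both Brg1+/+ libraries (y axis), for each library of mTEClo (left) and mTEChi (right); lines join the means of the Brg1-/- libraries. In mTEClo both Brg1-/- libraries lie at -0.70 and -0.85 in the bin below -3 and at 0.14 and 0.26 in the bin above 3.

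The Brg1 difference itself was compared between the sorts with an interaction term. No region was called (0% called, limma), with a smallest adjusted p of 0.242, while 11194 regions had an unadjusted p under 0.05 (7.57%), 3038 with a higher (2.05%) and 8156 with a lower (5.51%) fold change in mTEClo than in mTEChi. In mTEChi itself, 33 of the same regions were called (0.0223%), 21 higher (0.0142%) and 12 lower (0.00811%), and the median log2 fold change was 0.18. At the chromosome 11 region starting at 56953864, the fold change was -3.68 in mTEClo and 1.80 in mTEChi, a difference of -5.48 (SE 0.96, adjusted p = 0.242, limma). That region had signals of 1.43 and 12.8 in Brg1+/+ mTEChi and 18.4 and 20.04 in Brg1-/- mTEChi.

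The signs of the differences were compared with those in mTEChi, whose libraries are separate. Among the 5147 regions lower in mTEClo at an unadjusted p under 0.05, 51.6% had a negative fold change in mTEChi, against 39.7% of all regions. By class, it was 42.6% against 38.3% of the class for regions higher in mTEClo. For unclassed regions it was 53.2% against 37.4%, and for regions higher in mTEChi 72.9% against 58.4%. Among the 197 lower regions of any class at an unadjusted p under 0.001 the share was 61.9%. For regions higher at p under 0.05 it was 65.2% positive, against 60.3% of all, and for the 93 higher at p under 0.001 it was 61.3%, near that background. Lower in both sorts at that level were 435 regions, which is 8.45% of the mTEClo list, where 3.32% of all regions were lower in mTEChi, and 8.85% of the mTEChi list, where 3.48% of all were lower in mTEClo. Higher in both were 410 regions, 9.93% of the mTEClo list, where 8.36% of all regions were higher in mTEChi. They were 3.32% of the mTEChi list, where 2.79% of all were higher in mTEClo. Although the libraries are separate, both p-values of a region used the same pooled spread. A region with a small spread could therefore pass more easily in both sorts, in either direction. Regions passing in opposite directions were not counted, so these overlaps cannot show a shared difference.

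Neighbouring regions were averaged to see whether they differed together. Of 14593 bins of 100 kb with at least 3 members, none was called (0% called, limma), and 1107 had an unadjusted p under 0.05 (7.59%). The bin with the smallest p, on chromosome 14 from 48800001 to 48900000, held 6 regions, all with a negative fold change. Its mean log2(signal + 1) was 4.67 and 4.06 in Brg1+/+ and 2.66 and 3.01 in Brg1-/-, a log2 fold change of -1.53 (SE 0.27, adjusted p = 0.261, limma). It contains a region of the lower set, from 48844356 to 48844855, with 37.1 and 42.5 against 4.90 and 2.59. When bins needed at least 6 regions, this bin was called, with an adjusted p of 0.042 (limma).

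Of 21051 bins of 20 kb, 1490 had an unadjusted p under 0.05 (7.08%) and 1 was called (0.00475%), on chromosome 2 from 105080001 to 105100000. Its 3 regions averaged 5.37 and 4.83 on the log2 scale in Brg1+/+ and 3.11 and 2.40 in Brg1-/-, and the bin fell by 2.35 (SE 0.33, adjusted p = 0.00613, limma). The region at its left end, starting at 105080649, read 89.96 and 42.6 against 27.9 and 20.3, the middle one is the region with the largest fold change above, and the one at the right end, starting at 105099678, read 15.1 and 13.03 against 4.90 and 2.63. All 3 had non-overlapping groups. The adjusted p was 0.350 without Brg1+/+ replicate 1 and 0.198 without Brg1-/- replicate 2, so the call needed both. Over the 9 members within 30 kb of the bin, 7 fold changes were negative, where 49.2% of all regions were. The 7 include the bin's own 3, on which the call rests. Only those 3 had an unadjusted p under 0.05 (limma), and the 2 positive fold changes lay to the left of the bin.

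**Figure D5:**
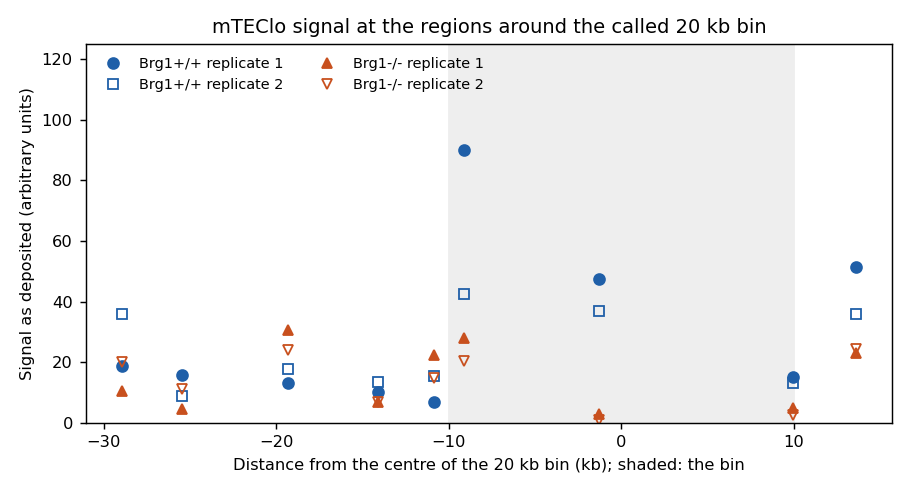
Deposited signal (y axis) in the 4 mTEClo libraries at the 9 regions around the called 20 kb bin on chromosome 2, by distance from the centre of the bin (x axis, kb; the bin is shaded). In the bin all 3 regions are higher in both Brg1+/+ libraries, the middle one at 47.6 and 36.9 against 2.78 and 0.886, while regions to the left are mixed.

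The Aire-line mTEClo libraries offered a further reference, although the mouse line and the Brg1 genotype cannot be told apart in it. Against those 4 libraries, Brg1-/- mTEClo had 524 called regions (0.354%, limma), 192 higher (0.13%) and 332 lower (0.224%). Brg1+/+ mTEClo had 132 (0.0892%), 124 higher (0.0838%) and 8 lower (0.00541%). Across all members the median was -0.22 for Brg1-/- and -0.23 for Brg1+/+ on the log2 scale, so both groups sat below the Aire line by about the same amount. After each library was re-centred on its median, Brg1-/- had 930 higher and 129 lower calls.

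Most higher calls were shared by both Brg1-line groups: the 124 higher calls of Brg1+/+ were all among the 192 of Brg1-/-, of which 152 lay on chromosome 2, where 7.51% of all members lie. One of them, from 77745912 to 77746411, read 193.8 and 407.8 in Brg1+/+, 393.0 and 347.4 in Brg1-/-, and 1.80 to 15.1 in the Aire-line mTEClo libraries.

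Of the 332 lower calls, 3 were also called in Brg1+/+, 330 were lower in Brg1-/- than in Brg1+/+, and 131 belonged to the regions higher in mTEClo, a class that holds 11.98% of all members. That class was chosen for high signal in the same Aire-line mTEClo libraries that are the reference here, so its share of these calls supports nothing. The lower calls share the Brg1-/- libraries with the main comparison, so the shared sign is not independent of it. On chromosome 13 from 44292584 to 44293083, signal was 45.1 and 23.4 in Brg1+/+, 0.508 and 11.04 in Brg1-/-, and 52.9 to 84.5 in the Aire line. Under as-deposited, quantile, cyclic loess and re-centred scaling alike, 95 lower regions were called. None of these was among the Brg1+/+ calls made under every scaling, which held only 1 lower region. Whether any was called in Brg1+/+ under a single scaling was not counted.

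Loss of Aire in the same sort gave a further yardstick. Comparing Aire-/- with Aire+/+ mTEClo over the same regions called none (0%, limma), and 3141 regions had an unadjusted p under 0.05 (2.12%), against 9277 for Brg1 (6.27%). Without any difference a share of 0.05 would be expected. In the 16-library fit the Aire share lay below it and the Brg1 share little above it. The mTEChi libraries also set the spread in that fit. With the 8 mTEClo libraries alone the Brg1 share was 12.6% (limma). Neither count is therefore a number of changed regions. The interaction between the Brg1 and Aire differences called none (0%), with 5205 regions at an unadjusted p under 0.05 (3.52%).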

How the data were processed

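ATAC-seq was measured in 16 libraries. The authors deposited a signal value for each of 250313 regions per library, and each of the 16 columns was matched to 1 library by its description. Per the submitters' processing notes, the tools included Bowtie2 and MACS2 and the build was mm9, with no versions. The definition of the regions and the scaling of the libraries were not given in the sources used. The deposited signal holds no whole numbers of reads, and none could be derived from it, so depth is unknown and no intervals are given. Members and lists were chosen with earlier results of these data known. Signal was analysed as log2(signal + 1). limma 3.58.1 in R 4.3.3 fitted 8 group means over 16 libraries (8 residual degrees of freedom, trend and robust moderation) on the 147958 members, with two-sided tests and Benjamini-Hochberg adjustment over all of them. The procedure was run on simulated data in which each region had the same spread in all libraries. That run therefore says nothing about groups that differ in spread. Named regions are those called, the 12 with the largest fold change per direction among those with an unadjusted p under 0.05, at least the median signal and non-overlapping groups, up to 5 per direction in each further comparison, the bins of 100 kb with the smallest p, and the most sort-dependent regions of each class; the text gives a subset. Alternatives changed the pseudocount, filter, scaling, libraries in the fit, weights, minimum fold change, chromosomes, replicate block, bins and classes, or left out 1 library. Marker lists and sequences were not analysed here.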

Additional observations from a re-analysis of the deposited data

Results flagged for a closer look

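The Brg1 difference ran in opposite directions in the sorts for both classes of region, in every library; the difference between the sorts was not tested for these medians. For regions higher in mTEClo, the gap to unclassed regions was lower in Brg1-/- than in Brg1+/+ in mTEClo, by a difference of -0.651 in log2(signal + 1), and higher in mTEChi, by 0.147. For regions higher in mTEChi it was higher in Brg1-/- mTEClo, by 0.106, and lower in mTEChi, by a difference of -0.393 (2 libraries per group).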

How the results depend on the processing

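The single called region of the main comparison became 0 with a pseudocount of 5, cyclic loess, a minimum absolute log2 fold change of 1, only the 8 Brg1-line libraries, or without Aire+/+ mTEChi replicate 2 (added after seeing the data), 3 with quantile normalization, 373 with the 8 mTEClo libraries, 85 with the 4 libraries compared and 70 with quality weights; leaving out 1 compared library, so that the lone library of its group is assumed to vary like the other groups, gave 0 to 2. The 373 became 230 with quantile and 226 with cyclic loess normalization, and 0 to 862 when 1 library was left out (all added after seeing the data). With the replicate number as a block the main count was 0 and that against the Aire line 507. Replicate 1 minus replicate 2 in Brg1+/+ mTEClo correlated at 0.0046 across regions with the same difference in Brg1-/- mTEClo. No shared replicate effect was seen between those groups, and the other groups were not checked. The 524 calls against the Aire line became 875 without a filter, 897 with a filter over all 16 libraries, 336 with cyclic loess, 1059 re-centred, 7349 with the 8 mTEClo libraries, 4356 with quality weights, 96 with a minimum log2 fold change of 1 and 792 without Aire+/+ mTEChi replicate 2; leaving out 1 mTEClo library gave 217 to 330 for the Brg1-/- libraries and 223 to 278 for the Aire line. The 0 bins called became 1 with 20 kb bins and 1 with at least 6 regions per bin. The median over all regions, 0.012, was 0.061 without a filter and 0.048 with the 16-library filter, and ran from -0.029 to 0.052 when 1 library was left out, so its sign was not stable. The shift of a class is its median log2 fold change minus that of unclassed regions. For regions higher in mTEClo it was -0.536 and stayed between -0.595 and -0.459 under the alternatives run. The shift of regions higher in mTEChi, 0.110, was 0.079 without a filter and 0.147 with cyclic loess. The differences between per-library gaps given above, such as -0.651, are another measure and were not recomputed under the alternatives. Both interactions had 0 calls under every alternative run. Of 350 values of the 25 named regions under 14 alternatives, none reversed, 8 were weaker (all at the called region) and 31 stronger. All 25 had large differences and non-overlapping groups in these libraries, so most alternatives could not reverse a sign. Only a region called in the main fit could become weaker, so these counts do not measure robustness. The cause was not tested. Depth is unknown, so its limits on low regions cannot be stated.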
